A study of Mus musculus with 18 samples.

Results

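Cytoplasmic input RNA of the mouse macrophage-like line RAW264.7 was compared between 2 runs of one nascent ribosome profiling experiment. The comparison used 4 of the 18 libraries of the series, matched by labelling time. Experiment 2 gave 2 input libraries, from cells labelled for 20 and for 40 min with 200 µM 4-thiouridine (4sU), which cells build into new transcripts in place of uridine. Experiment 1 gave 2 input libraries, from cells labelled with 200 µM 4sU for the same 20 and 40 min. No other treatment, clone or passage is given for either run, and the labels do not say whether the lysates were separate cultures, so the p-values cover the spread of these libraries alone, which may be technical. Every lysate was prepared in cycloheximide, which arrests ribosomes. About 10% of it was kept as input, freed of ribosomal RNA, fragmented by alkali and cut from a gel at 25 to 35 nt. Ribosome footprints, the RNA that ribosomes shield from RNase I, came from monosomes of the rest of the same lysate. The other 5 input libraries were 30 min of experiment 2 and 0, 60, 90 and 120 min of experiment 1, and they were used for levels outside the contrast and in alternative fits.

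Input RNA stands for the cytoplasmic mRNA pool, in which a gene's read count depends on the abundance and length of its mRNA. Mitochondria carry a small genome of their own, which is copied into long transcripts that are cut into mRNAs for subunits of the respiratory chain. Pabpc1 encodes the cytoplasmic poly(A)-binding protein, which coats mRNA tails and aids translation. Macrophages are tissue phagocytes that carry lysosomes, scavenger receptors and chemokine genes.

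Depth differed strongly between the runs. The libraries of experiment 2 held 48139330 reads at 20 min and 26359243 at 40 min, against 6840807 and 6822082 in experiment 1. Of the reads of experiment 2, 0.813% at 20 min and 1.99% at 40 min carried a T-to-C conversion, against 0.866% and 2.16% in experiment 1. The macrophage genes Csf1r and Cd68 were present at 1221 and 1156 CPM and at 382 and 373 CPM in experiment 2, against 1049 and 936 CPM and 339 and 327 CPM in experiment 1. CPM is a gene's read count relative to the TMM-scaled total of its library. Of 29 markers of other cell types, 20 had no read in the 4 libraries or were not listed, and the summed level of the list was 3.77 and 4.83 CPM in experiment 2 against 1.44 and 1.49 CPM in experiment 1. Of the 3 markers deep enough to test, S100a8 of neutrophils (log2 2.19) and Cd79b of B cells (log2 2.28) were higher in experiment 2, with 71 and 56 reads of S100a8 against 2 and 3, and 50 and 33 reads of Cd79b against 2 and 1. Neither passed without the 20 min or without the 40 min library of experiment 1. Cd79b did not enter the test when a library of experiment 2 was left out. The defining B cell and T cell genes Ms4a1, Cd3e and Cd8a were not listed, while the B cell gene Cd79a had 14 and 3 reads in experiment 2 against 0 and 0 in experiment 1, and the T cell genes Cd3d and Cd4 had 2 and 3 and 0 and 1 reads against none. The part of these traces in the results was not tested.

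Of 10278 genes tested by edgeR's quasi-likelihood test, 2069 (20.1%) were higher and 1619 (15.8%) were lower in experiment 2 at an adjusted p under 0.05. At least 2-fold differences were one-sided: 806 genes (7.84%) were that much higher and 70 (0.681%) that much lower. All 3688 genes past the test differed in the same direction at 20 min and at 40 min. The test used these same 4 libraries and seldom passes a gene with opposite directions, so this is no separate support. Across all genes tested the differences at the 2 times correlated with r = 0.77 (Spearman's rho = 0.78), a description across genes that share libraries and depth. In either direction 35.9% of the genes tested passed. The median difference over all genes was -0.01 on the log2 scale. With the reads thinned to the smallest library, 744 and 58 genes were at least 2-fold higher and lower. Single libraries weighed on the counts: without the 40 min library of experiment 1, 813 genes passed as higher and 480 as lower, and without the 20 min library of experiment 2, 1059 and 328.

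In experiment 2, 20.1% of all genes tested rose and 15.8% fell. Of the 13 mitochondrially encoded mRNAs, 8 rose in experiment 2, none fell and 5 did not pass, with a median difference of 1.05 (log2). Those that rose encode every complex I subunit of the group except mt-Nd3 (mt-Nd1, mt-Nd2, mt-Nd4, mt-Nd4l, mt-Nd5 and mt-Nd6), cytochrome b of complex III (mt-Cytb), and mt-Atp8 of the ATP synthase. The 3 cytochrome c oxidase mRNAs, mt-Nd3 and mt-Atp6 did not pass. mt-Nd5 (chrM:11742-13565, GRCm38) had 1914 CPM at 20 min and 776 at 40 min in experiment 2, against 351 and 338 CPM in experiment 1. Both values of experiment 2 lay above both of experiment 1, and the log2 difference was 1.96 ± 0.33 (SE, adjusted p = 0.0035).

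mt-Nd2 had 1197 and 398 CPM in experiment 2, against 225 and 221 CPM in experiment 1 (log2 1.84 ± 0.39, adjusted p = 0.0081). mt-Cytb had 2632 and 1083 CPM, against 609 and 676 CPM (log2 1.53 ± 0.33, adjusted p = 0.0081). In each of these mRNAs the 20 min library of experiment 2 was higher than the 40 min library, while the pair from experiment 1 was close together. mt-Nd6, the only mRNA of the 13 read from the light strand, was the steadiest, with 239 and 188 CPM in experiment 2 against 61.4 and 63.9 CPM in experiment 1 (log2 1.76 ± 0.14, adjusted p = 0.00034). It lies opposite mt-Nd5 at its end, and the sources used here do not give the strand used in counting. mt-Nd4 and mt-Nd4l, and mt-Atp6 with mt-Atp8 and mt-Co3, overlap on one strand.

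The cytochrome c oxidase mRNAs gave a different picture. mt-Co1, which encodes the catalytic subunit, had 19566 and 15511 CPM in experiment 2, against 16132 and 20484 CPM in experiment 1 (log2 -0.07 ± 0.19, adjusted p = 0.80). mt-Co3 had 6830 and 6309 CPM, against 7690 and 9342 CPM (log2 -0.38 ± 0.16, adjusted p = 0.086). The groups of mt-Co1 overlapped and those of mt-Co3 did not, but neither difference passed. The whole group differed by a median of 1.97 at 20 min and of 0.25 at 40 min. Without the 20 min library of experiment 2 the median was 0.56 with 6 mRNAs past the test, and without the 40 min library of experiment 1 it was 1.63 with 2 past it. mt-Nd6 passed in each of the 4 fits that left out 1 library, and mt-Nd1, mt-Nd2, mt-Nd4, mt-Nd4l, mt-Nd5, mt-Cytb and mt-Atp8 each lost the call in at least 1. With offsets for transcript length 10 rose, against 1619 of all 9962 genes tested. As a share of all reads the 13 mRNAs held 5.13% and 3.61% in experiment 2, against 3.39% and 4.14% in experiment 1 (95% Wilson intervals 5.13 to 5.14%, 3.60 to 3.62%, 3.38 to 3.40% and 4.13 to 4.16%, counting error only), so the groups overlapped, and an exact two-sided permutation test of 2 against 2 samples cannot go below p = 0.333. In bulk RNA, less RNA per cell and fewer cells with it cannot be told apart.

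**Figure D1:**
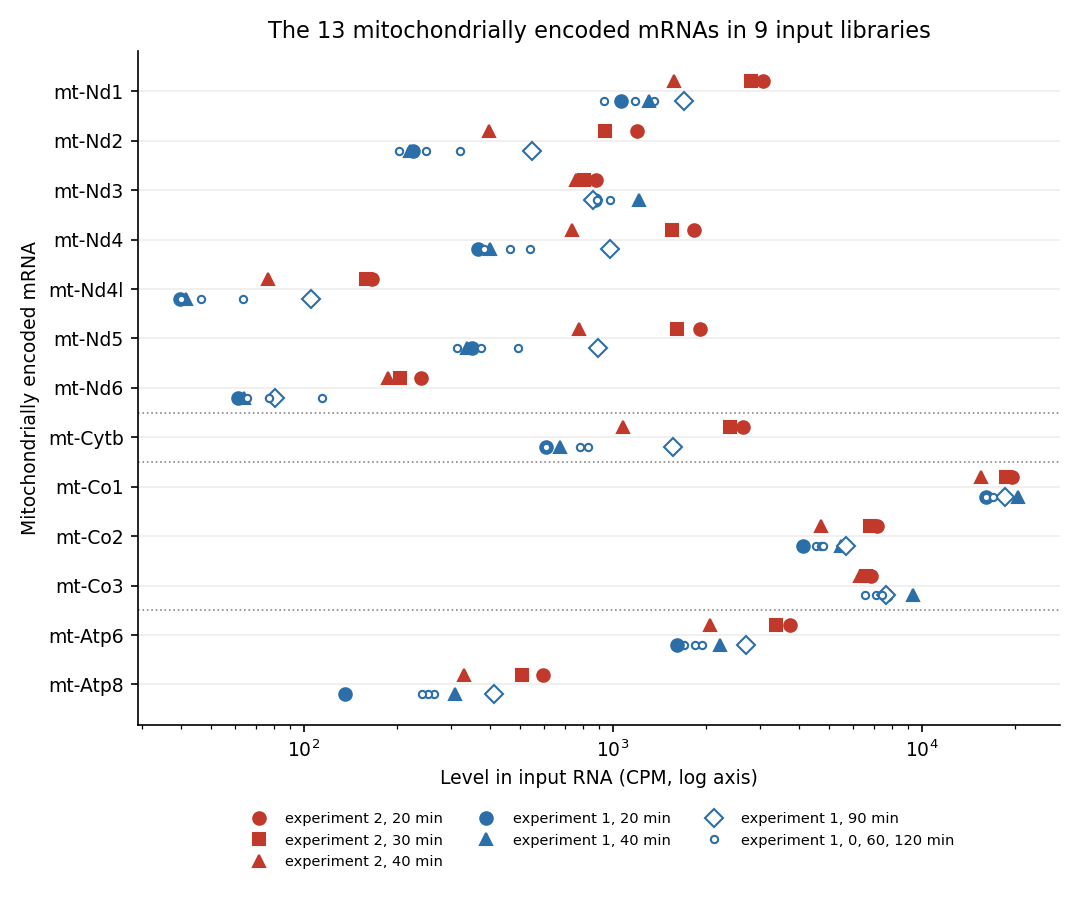
Levels of the 13 mitochondrially encoded mRNAs in the 9 input libraries, in CPM on a log axis. Red marks above each line are experiment 2 and blue marks below it are experiment 1, with a symbol for each time, and dotted lines part complex I, complex III, complex IV and the ATP synthase. For mt-Nd5 the 3 libraries of experiment 2 lie at 776 to 1914 CPM, and the 90 min library of experiment 1 at 898 CPM lies inside that range and apart from the other 5, at 313 to 495 CPM.

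The rise of mt-Nd mRNAs did not appear in footprints of the same lysates. None of the 13 passed in footprints, where their median difference was -0.63. Of all genes tested in footprints 13.6% passed, 7.78% as higher and 5.86% as lower. The difference between input and footprints itself passed for mt-Nd2, mt-Nd4, mt-Nd5, mt-Nd6 and mt-Cytb, against 12.3% of all genes with a higher value in input and 6.37% with a lower one. Those calls depend on the 40 min lysate of experiment 1: without it 3 genes in all passed as higher in input and none as lower, against 1299 and 674 with it. Footprints came from cytosolic monosomes, and the mitochondrial mRNAs held 0.317% and 0.750% of their reads in experiment 2, against 0.537% and 1.09% in experiment 1.

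Pabpc1 (chr15:36595661-36609668) rose in experiment 2. It had 1891 CPM at 20 min and 723 CPM at 40 min, against 553 and 471 CPM in experiment 1 (log2 1.35 ± 0.35, adjusted p = 0.017). The 30 min library of experiment 2 had 1798 CPM. The other libraries of experiment 1 had 761, 775, 2325 and 707 CPM at 0, 60, 90 and 120 min, so its 90 min library was above all 3 of experiment 2. The call held in 1 of 4 fits without a single library, that without the 40 min library of experiment 2, and the log2 difference ran between 0.50 and 1.89 over them. In footprints Pabpc1 had 879 and 700 CPM in experiment 2 against 759 and 596 CPM in experiment 1 and did not pass (log2 0.22, adjusted p = 0.29).

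Among mRNAs of the translation machinery, most ribosomal protein mRNAs were lower in experiment 2. Of 46 large-subunit ribosomal protein mRNAs tested, 35 fell and 1 rose (Rpl28), with a median of -0.52. Of 30 for the small subunit, 21 fell and 1 rose (Rps16), with a median of -0.48. Among all genes tested 15.8% fell and 20.1% rose. Rps3 had 1841 and 2128 CPM in experiment 2 against 3102 and 3434 CPM in experiment 1 (log2 -0.72 ± 0.14, adjusted p = 0.0057), and Rpl9 had 121 and 123 CPM against 213 and 220 CPM (log2 -0.83 ± 0.10, adjusted p = 0.0012). These groups of values did not overlap, and in footprints neither gene passed. Rpl9 has 9 annotated pseudogenes, and the sources used here do not say how reads with several matches were counted. These mRNAs are short. Where offsets for transcript length left 1224 of all 9962 genes tested lower, 6 large-subunit and 6 small-subunit mRNAs fell. The medians of the 2 lists were then -0.17 and -0.14. Without the 20 min library of experiment 2 the counts that fell were 4 and 0, and Rps3 no longer passed, as also without the 40 min library of experiment 1.

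Rps16 (chr7:28350652-28353155) went against its family. It encodes a protein of the small ribosomal subunit and had 751 and 854 CPM in experiment 2, against 118 and 62.6 CPM in experiment 1 (log2 3.15 ± 0.24, adjusted p = 0.00034). In the other libraries of experiment 1 it ranged from 204 to 396 CPM, highest at 90 min, and the 30 min library of experiment 2 had 799 CPM. In footprints the gene was level, with 1128 and 1206 CPM against 1072 and 1024 CPM, and the difference between materials passed (log2 3.01, adjusted p = 0.00063). Rps16 has 2 annotated pseudogenes.

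Of 35 initiation factor mRNAs, 7 rose and 7 fell, close to the 20.1% and 15.8% over all genes, and none fell without the 20 min library of experiment 2. The scaffold subunits of eIF3 were among those that rose, Eif3b with 556 and 475 CPM in experiment 2 against 172 and 104 CPM in experiment 1 (log2 1.90 ± 0.20, adjusted p = 0.00081), and Eif3a with 990 and 1060 CPM against 544 and 443 CPM (log2 1.05 ± 0.13, adjusted p = 0.0012). Eif5b, which joins the ribosomal subunits at the start codon, rose by 1.65 ± 0.20 (adjusted p = 0.0011). In footprints the 3 genes differed by 0.02, 0.01 and 0.12 and did not pass, and the difference between materials passed for each.

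The genes with the largest rises are given in 2 sets by the size of their footprint difference. The first set differed in footprints by a log2 of 1.76 or more. Ctsh (chr9:90054152-90076089), the lysosomal protease cathepsin H, had 19.8 and 21.1 CPM in experiment 2 against 1.29 and 0.894 CPM in experiment 1 (log2 4.21 ± 0.25, adjusted p = 8.4e-05). In footprints it had 20.1 and 19.9 CPM against 1.57 and 1.18 CPM. Car2 (chr3:14886273-14900770), a carbonic anhydrase, had 61.0 and 64.5 CPM against 5.60 and 4.62 CPM (log2 3.61 ± 0.16, adjusted p = 2.4e-05), and its difference in footprints was larger, at 4.45.

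Ccl2 (chr11:82035571-82037453), a chemokine that attracts monocytes, had 46.7 and 53.4 CPM in experiment 2 against 6.89 and 6.26 CPM in experiment 1 (log2 2.92 ± 0.16, adjusted p = 8.4e-05). Gucy2g, a membrane guanylyl cyclase, rose by 3.14 ± 0.36, with 2.67 in footprints, and the phosphatase gene Ptpn5 by 3.19 ± 0.35, with 1.76. Over the 6 input libraries of experiment 1, Ctsh stayed between 0.726 and 2.09 CPM, Car2 between 3.42 and 5.60 CPM and Ccl2 between 3.34 and 6.89 CPM, far below the 3 libraries of experiment 2.

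The second set rose in input and differed in footprints by a log2 of 0.70 or less. Kdm6b, a histone H3 lysine demethylase, had 18.8 and 5.41 CPM in experiment 2 against 1.29 and 0.298 CPM in experiment 1 (log2 3.93 ± 0.80, adjusted p = 0.0067), and was also called higher in footprints, by 0.70 (adjusted p = 0.030). Furin (chr7:80388585-80405436), a protease of the secretory pathway, had 56.0 and 33.0 CPM against 5.17 and 2.24 CPM (log2 3.58 ± 0.36, adjusted p = 0.00068), and was also called higher in footprints, by 0.57 (adjusted p = 0.017). Zfhx2 (3.58), Anpep (3.11) and the interferon regulatory factor Irf2 (2.91) were also among the highest, with footprint differences of 0.21, 0.37 and -0.23 that did not pass. The difference between materials passed for these 5 genes and for Ptpn5 and Rps16, Car2 passed it as larger in footprints, and Ctsh, Ccl2 and Gucy2g did not pass it. Kdm6b, Zfhx2 and Furin overlap other annotated genes. Without the 40 min library of experiment 1, Kdm6b and Zfhx2 no longer passed in input, and Zfhx2 also not without its 20 min library.

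**Figure D2:**
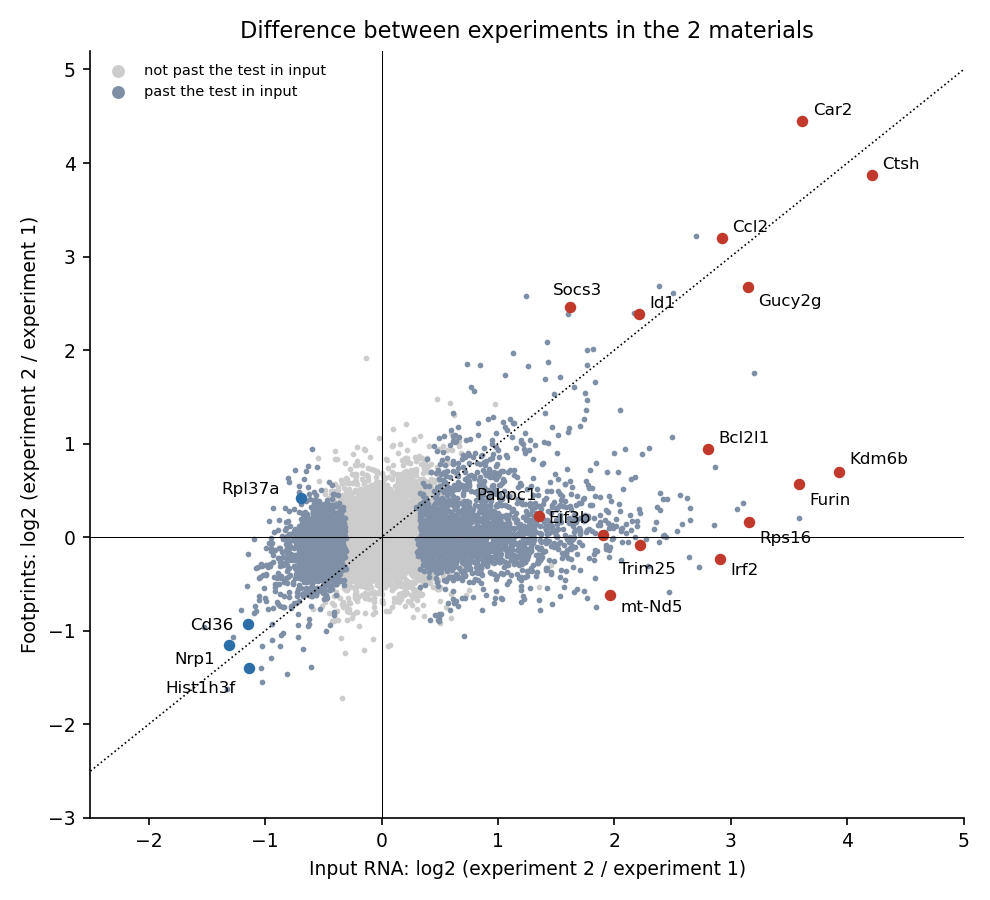
Log2 difference of experiment 2 over experiment 1 in input RNA (x axis) and in footprints of the same lysates (y axis), for genes averaging 100 reads or more in the 4 input libraries. Each dot is a gene, the dotted line marks equal differences, and labelled genes are red where higher and blue where lower in input. Ctsh, Ccl2 and Id1 lie near the line and Car2 lies above it, while Rps16, Irf2 and Trim25 lie near 0 in footprints.

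Across the 806 genes that were at least 2-fold higher in input, 788 were tested in footprints and 189 (24.0%) were called higher there, with 30 called lower. The difference between materials passed as larger in input for 524 of the 806. The median difference of the 806 was 1.42 in input and 0.15 in footprints, and both materials came from the same lysates. Of the 70 genes at least 2-fold lower in input, 66 were tested in footprints and 34 (51.5%) were called lower there, with none called higher. The share called in footprints was 7.78% higher and 5.86% lower over all genes. Both sets were chosen on the input contrast, so the input medians and the count larger in input are a description only.

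The other 5 input libraries allowed the same genes to be read without the 4 of the contrast. In the 30 min library of experiment 2, 782 of the 806 genes lay above all 4 of the other experiment 1 libraries, and 59 of the 70 lay below them. The share of all genes that did so was not computed. Above the mean log2 level of those 4 libraries were 803 of the 806, against 5619 of all 10278 genes tested, and 68 of the 70 were below it. The median difference there was 1.17 for the 806 and -0.82 for the 70. The 450 of the 806 that were called larger in input and not called in footprints varied more within experiment 1, with a median SD of 0.41 (log2) over its other 4 libraries against 0.20 over all genes. Of them, 425 were higher in its 90 min library than in the mean of 0, 60 and 120 min, by a median of 0.63, against -0.01 over all genes tested. For the 189 genes also called higher in footprints this median was 0.16. Across 8937 genes with at least 100 reads on average, the difference between experiments and this shift of the 90 min library correlated with r = 0.51 (Spearman's rho = 0.37) in input, and with rho = -0.10 in footprints. These libraries share no reads with the contrast, but each belongs to 1 of the same 2 runs, so they are no separate repeat of the difference. The correlation is across genes.

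**Figure D3:**
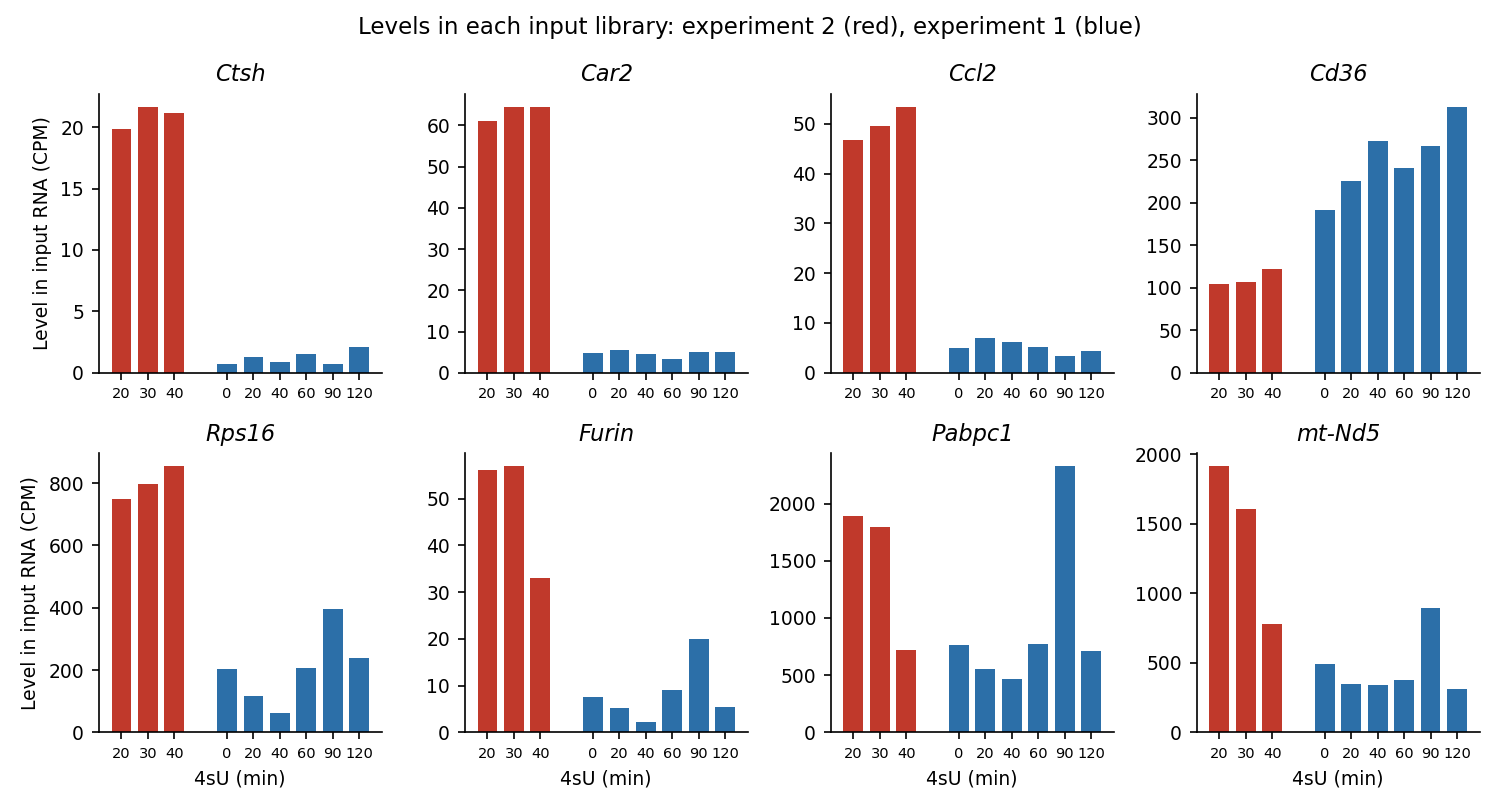
Levels of 8 genes in CPM in each of the 9 input libraries, with experiment 2 in red on the left and experiment 1 in blue on the right of each panel, by minutes of 4sU. The libraries of the 2 runs do not overlap for Ctsh, Car2, Ccl2 and Cd36, while Rps16, Furin, Pabpc1 and mt-Nd5 are highest at 90 min within experiment 1, where Pabpc1 reaches 2325 CPM.

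Most replication-dependent histone mRNAs were lower in experiment 2, 46 of the 1619 genes that fell. Replication-dependent histones are made in S phase, end in a stem-loop instead of a poly(A) tail and are encoded by near-identical gene copies, so single members are uncertain where reads can match several. Of 55 tested, 46 fell and 1 rose (Hist2h4), with a median of -0.87. The summed level of the list was 6835 and 6391 CPM in experiment 2 against 12338 and 9786 CPM in experiment 1, and the groups did not overlap. Hist1h2bf, an H2B gene and the lowest of all named genes, had 30.6 and 25.0 CPM against 89.0 and 71.8 CPM (log2 -1.53 ± 0.15, adjusted p = 0.00064). Hist1h3f had 81.7 and 80.2 CPM against 194 and 162 CPM (log2 -1.14 ± 0.12, adjusted p = 0.00072), and Hist1h4n fell by 1.33 on the log2 scale.

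In footprints 31 of 55 replication-dependent histone mRNAs were called lower and none higher, with a median of -0.54. In that material 5.86% of all genes tested were called lower and 7.78% higher. Hist1h3f had 238 and 338 CPM of footprints in experiment 2 against 823 and 696 CPM in experiment 1. These are among the shortest mRNAs, and with offsets for transcript length 17 fell in input and the median was -0.40. Of 9 polyadenylated histone variants 5 fell and 1 rose (Cenpa), and H2afz fell by 0.82 ± 0.12 on the log2 scale (adjusted p = 0.0022). The kinase gene Aurkb fell by 0.57 and the cyclin gene Ccnb1 by 0.55, 2 of the 11 of 32 mitotic genes that fell, while 5 rose (Anln, Cenpe, Cenpf, Plk1 and Mki67). Of all genes tested, 15.8% fell and 20.1% rose. Without the 20 min library of experiment 2, 1 mitotic gene fell and 1 rose, and Ccnb1 no longer passed. In the fit without the 40 min library of experiment 1, 3 fell and 2 rose, and without the 40 min library of experiment 2, 4 fell. Cdkn2c, an inhibitor of cyclin-dependent kinases, had 28.7 and 31.5 CPM in experiment 2 against 64.3 and 69.2 CPM in experiment 1 (log2 -1.15 ± 0.13, adjusted p = 0.00086).

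The other genes among the 12 lowest included several membrane proteins. Cd36 (chr5:17781690-17888801), a scavenger receptor for oxidised lipids, had 104 and 122 CPM in experiment 2 against 225 and 273 CPM in experiment 1 (log2 -1.15 ± 0.13, adjusted p = 0.0011). Nrp1, a co-receptor for semaphorins and VEGF, had 11.3 and 9.66 CPM against 26.8 and 25.2 CPM (log2 -1.31 ± 0.15, adjusted p = 0.0011). The protease inhibitor gene Serpinb8 had 21.1 and 22.2 CPM against 52.4 and 52.5 CPM (log2 -1.28 ± 0.12, adjusted p = 0.00064). All 3 were also lower in footprints, by 0.93, 1.15 and 1.06 on the log2 scale. The groups of each gene did not overlap in either material.

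Cd101, an immunoglobulin-family membrane protein, fell by 1.21, and Ggh, a folate-processing hydrolase, by 1.08, both also called lower in footprints. Tnni2, a troponin subunit, fell by 1.15, Rdm1 by 1.10 and RP23-140G16.1 by 1.09. Tnni2 and RP23-140G16.1 did not pass in footprints, and the difference between materials passed for both. Rdm1 and Ggh each lost their call in at least 1 fit without a single library.

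Some genes of cytokine signalling were also among those that differed between the 2 runs. GM-CSF, the product of Csf2, is a growth factor for macrophages, and its receptor acts through JAK2 and STAT5, which switch on feedback inhibitors such as Cish and Socs3. These 18 genes were collected after values were seen, so their counts are a description. Csf2 (chr11:54247271-54249667) had 151 and 46 reads in experiment 2 against 1 and 0 reads in experiment 1, a ratio of 36.1 at equal depth (95% exact interval 6.41 to 1434, counting error only). All 6 input libraries of experiment 1 together held 1 read of it. Cish (chr9:107296026-107302784) had 45 and 16 reads against none, at least 3.73-fold higher with 3 reads over both libraries as the floor. No read of Cish was seen in any of the 6 input libraries of experiment 1, and its footprints numbered 125 and 46 in experiment 2 against 0 and 0 in experiment 1. Csf2 and Cish each overlap another annotated gene, and both lost their call without the 40 min library of experiment 1 (Cish also without its 20 min library). Cish did not enter the test when a library of experiment 2 was left out.

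Socs3 had 6.04 and 6.57 CPM in experiment 2 against 2.30 and 1.79 CPM in experiment 1 (log2 1.62 ± 0.25, adjusted p = 0.0027), with 2.46 in footprints. Bcl2l1, which encodes the survival protein Bcl-xL, had 36.4 and 28.9 CPM against 6.03 and 3.28 CPM (log2 2.80 ± 0.24, adjusted p = 0.0005). Its difference between materials passed as larger in input (log2 1.88). The shared receptor chain Csf2rb had 15.3 and 11.8 CPM against 6.03 and 3.43 CPM (log2 1.52 ± 0.26, adjusted p = 0.0036). Of 16 members tested, 10 passed as higher and none as lower, and 7 passed with reads thinned to the smallest library. Over all genes 20.1% were higher and 15.8% lower in input. The members were chosen after values were seen, so a high count is in part built in. In footprints 8 of 15 were called higher, against 7.78% of all genes. Without the 40 min library of experiment 1, 5 of them passed in input.

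The promoters of Cish and Socs3, both higher in both materials, are shown for the TTCNNNGAA motif that STAT proteins are known to bind. They run from 250 bases before to 50 after the start site in RefSeq on GRCm38.p6, 5′ to 3′ on the strand of the gene, at chr9:107296409-107296708 (plus strand) and chr11:117969317-117969616 (minus strand). Capitals mark each match to TTCNNNGAA, which was searched on both strands.
Cish: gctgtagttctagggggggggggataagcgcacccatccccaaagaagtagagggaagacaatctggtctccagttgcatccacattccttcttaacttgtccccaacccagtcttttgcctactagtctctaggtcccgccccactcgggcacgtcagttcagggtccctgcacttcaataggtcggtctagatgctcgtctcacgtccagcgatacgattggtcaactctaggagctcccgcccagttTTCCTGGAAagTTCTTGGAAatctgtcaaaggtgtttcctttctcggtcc
Socs3: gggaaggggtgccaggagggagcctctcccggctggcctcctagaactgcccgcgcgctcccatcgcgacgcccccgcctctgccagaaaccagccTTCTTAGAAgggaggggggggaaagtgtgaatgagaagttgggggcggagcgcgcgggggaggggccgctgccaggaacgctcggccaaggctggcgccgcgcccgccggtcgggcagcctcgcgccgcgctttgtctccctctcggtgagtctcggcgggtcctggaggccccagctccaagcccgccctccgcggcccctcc
Cish holds 2 matches and Socs3 holds 1. Of the 18 genes collected here, 13 had a listed RefSeq promoter and 3 of those held the motif, and 8.47% of all 27025 promoters of the same length held it. With 3 such promoters and genes chosen after values were seen, these shares cannot show an excess of the motif. Binding of STAT proteins to these promoters was not tested.

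The chemokines Ccl4 and Ccl3 were higher in both materials. Ccl4 had 37.7 and 38.6 CPM in experiment 2 against 12.1 and 10.3 CPM in experiment 1 (log2 1.77 ± 0.15, adjusted p = 0.00038), and Ccl3 had 73.7 and 72.3 CPM against 26.6 and 28.6 CPM (log2 1.40 ± 0.12, adjusted p = 0.00053). Both attract leukocytes, and in footprints they differed by 2.00 and 1.69. Of 32 NF-kB response and inflammatory genes tested, 9 rose and 4 fell (Relb, Nfkb1, Sod2 and the chemokine Cxcl10), where 20.1% and 15.8% of all genes did. Of 38 immediate-early regulators 18 rose and 2 fell (Id3 and Dusp6), with a median of 0.60. In footprints 17 of 41 were called higher and 1 lower, against 7.78% and 5.86% of all genes. Without the 40 min library of experiment 1, 5 rose in input.

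Id1, an inhibitor of basic helix-loop-helix factors, had 22.5 and 24.8 CPM in experiment 2 against 6.75 and 3.43 CPM in experiment 1 (log2 2.21 ± 0.24, adjusted p = 0.00092), with 2.39 in footprints. Klf6, a zinc finger factor, rose by 0.85 ± 0.14 (adjusted p = 0.0032). The clock gene Per1 rose by 1.53 ± 0.26 (adjusted p = 0.0033) but did not pass in footprints. Where 20.1% of all genes rose and 15.8% fell, 15 of 41 interferon response genes rose and 5 fell (H2-D1, H2-K1 and B2m, which form MHC class I, the immunoproteasome subunit Psmb8, and Trim30a). These counts were 8 and 3 without the 40 min library of experiment 1, and 10 and 1 without the 20 min library of experiment 2. The antiviral synthetases Oas3 and Oas2 rose by 1.19 and 1.22 in input and by 1.04 and 1.00 in footprints. Trim25, a ubiquitin ligase, rose by 2.22 in input, with 101 and 82.4 CPM in experiment 2 against 22.2 and 16.99 CPM in experiment 1. In footprints its difference was -0.08 and did not pass.

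Most nuclear-encoded mRNAs of the respiratory chain were lower in experiment 2, as were many of the mitochondrial ribosome. Among all genes tested 15.8% were lower and 20.1% higher. Of 76 oxidative phosphorylation mRNAs, 61 fell and 1 rose (Sdha), with a median of -0.54, and of 76 mitochondrial ribosomal protein mRNAs 43 fell and 6 rose, with a median of -0.39. Ndufb11 of complex I had 76.2 and 80.8 CPM in experiment 2 against 151 and 151 CPM in experiment 1 (log2 -0.95 ± 0.11, adjusted p = 0.00092), and Cox8a of complex IV fell by 0.80 ± 0.11 on the log2 scale (adjusted p = 0.0015). Mrps28 fell by 0.81, and Mrpl12 rose by 1.46. In footprints 12 of the 76 oxidative phosphorylation mRNAs were called lower and 2 higher, against 5.86% and 7.78% of all genes. Ndufb11, Cox8a, Mrps28 and Mrpl12 did not pass there. With offsets for transcript length 19 oxidative phosphorylation mRNAs and 21 mitochondrial ribosomal protein mRNAs fell in input, and 26 and 13 did without the 20 min library of experiment 2. The counts that fell were 36 and 16 without the 40 min library of experiment 1.

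Of 35 proteasome subunits 16 fell and 5 rose, and 3 fell without the 20 min library of experiment 2 and 5 without the 40 min library of experiment 1. Psmb3, of the catalytic core, fell by 0.77 on the log2 scale, and Psmd7, of the lid, rose by 1.28. For these lists and the lysosomal one, the shares over all genes were 20.1% higher and 15.8% lower. Of 40 lysosomal genes 11 rose and 2 fell, and 7 rose without the 40 min library of experiment 1, as without the 20 min library of experiment 2. Grn, a lysosomal growth factor precursor, had 241 and 246 CPM in experiment 2 against 115 and 97.3 CPM in experiment 1 (log2 1.20 ± 0.11, adjusted p = 0.00064), and Gusb, a glucuronidase, rose by 1.08. Atp6v0c, the proton-carrying subunit of the vacuolar ATPase, rose by 1.65 in input and was called lower in footprints, by 0.59 on the log2 scale, and it has 2 annotated pseudogenes.

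Of 35 macrophage identity genes 6 rose and 5 fell (Cd36, Tyrobp, Cx3cr1, Ptprc and Trem2), close to the 20.1% and 15.8% over all genes. The macrophage lysozyme Lyz2 did not pass, with 3540 and 3897 CPM in experiment 2 against 4482 and 4570 CPM in experiment 1 (log2 -0.29, adjusted p = 0.12). Gpnmb, a membrane glycoprotein of phagocytes, had 91.2 and 114 CPM against 40.6 and 35.3 CPM (log2 1.43 ± 0.15, adjusted p = 0.00072), with 1.87 in footprints. The high-affinity IgG receptor Fcgr1 rose by 0.89 in input and by 0.34 in footprints.

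Where 20.1% of all genes rose and 15.8% fell, 8 of 19 NRF2 targets, which respond to oxidative stress, rose and none fell. This count was 3 without the 40 min library of experiment 1 and 5 without the 20 min library of experiment 2. In footprints 8 of 19 were called higher and none lower, where 7.78% and 5.86% of all genes were. Hmox1, heme oxygenase 1, had 40.1 and 45.0 CPM in experiment 2 against 18.9 and 15.5 CPM in experiment 1 (log2 1.30 ± 0.15, adjusted p = 0.00098), with 0.64 in footprints. Pgd, of the pentose phosphate pathway, rose by 1.53. Of 21 glycolytic enzymes 8 rose and 2 fell (Tpi1 and Pgam1), among them Hk1 with 1.08 and Eno1 with 1.13, and in footprints 12 were called higher and none lower.

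Of the genes named from the chaperone, cytoskeleton and RNA-binding lists, 6 rose more in input than in footprints. The chaperone Hsp90ab1 had 2072 and 1672 CPM in experiment 2 against 760 and 561 CPM in experiment 1 (log2 1.50 ± 0.17, adjusted p = 0.00094), the cytoskeletal linker Msn had 210 and 110 CPM against 42.2 and 29.8 CPM (log2 2.15 ± 0.28, adjusted p = 0.0015), and Actg1 of the actins rose by 1.54 ± 0.11. The ER chaperone Hyou1 rose by 0.99, the RNA-binding protein Hnrnpd by 1.41 and the deadenylase subunit Cnot3 by 1.79. The difference between materials passed for all 6, and of these Actg1 (0.40) and Hyou1 (0.34) were also called higher in footprints, and Hnrnpd was called lower there (-0.35).

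Over all genes 20.1% were higher and 15.8% lower. Of 35 DNA replication genes 6 rose and 11 fell, and of 37 ATF4 targets 7 rose and 1 fell. Of 24 endoplasmic reticulum chaperones 5 rose and 2 fell, of 35 actin cytoskeleton genes 9 rose and 5 fell, and of 33 poly(A) tail binding and deadenylation genes 8 rose and 3 fell. Of 24 cholesterol synthesis genes 2 rose and 3 fell. Without the 40 min library of experiment 1, 2 DNA replication genes rose and 4 fell, and 3 ATF4 targets, 4 actin cytoskeleton genes, 3 poly(A) genes and no cholesterol synthesis gene rose. Without the 20 min library of experiment 2, 3 DNA replication genes rose and 1 fell, and 3 ATF4 targets, 5 actin cytoskeleton genes, 3 poly(A) genes and 1 cholesterol synthesis gene rose. The medians of the translation initiation, chaperone, ATF4, cholesterol and actin lists lay within 0.05 of 0 and changed sign under at least 1 alternative.

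**Figure D4:**
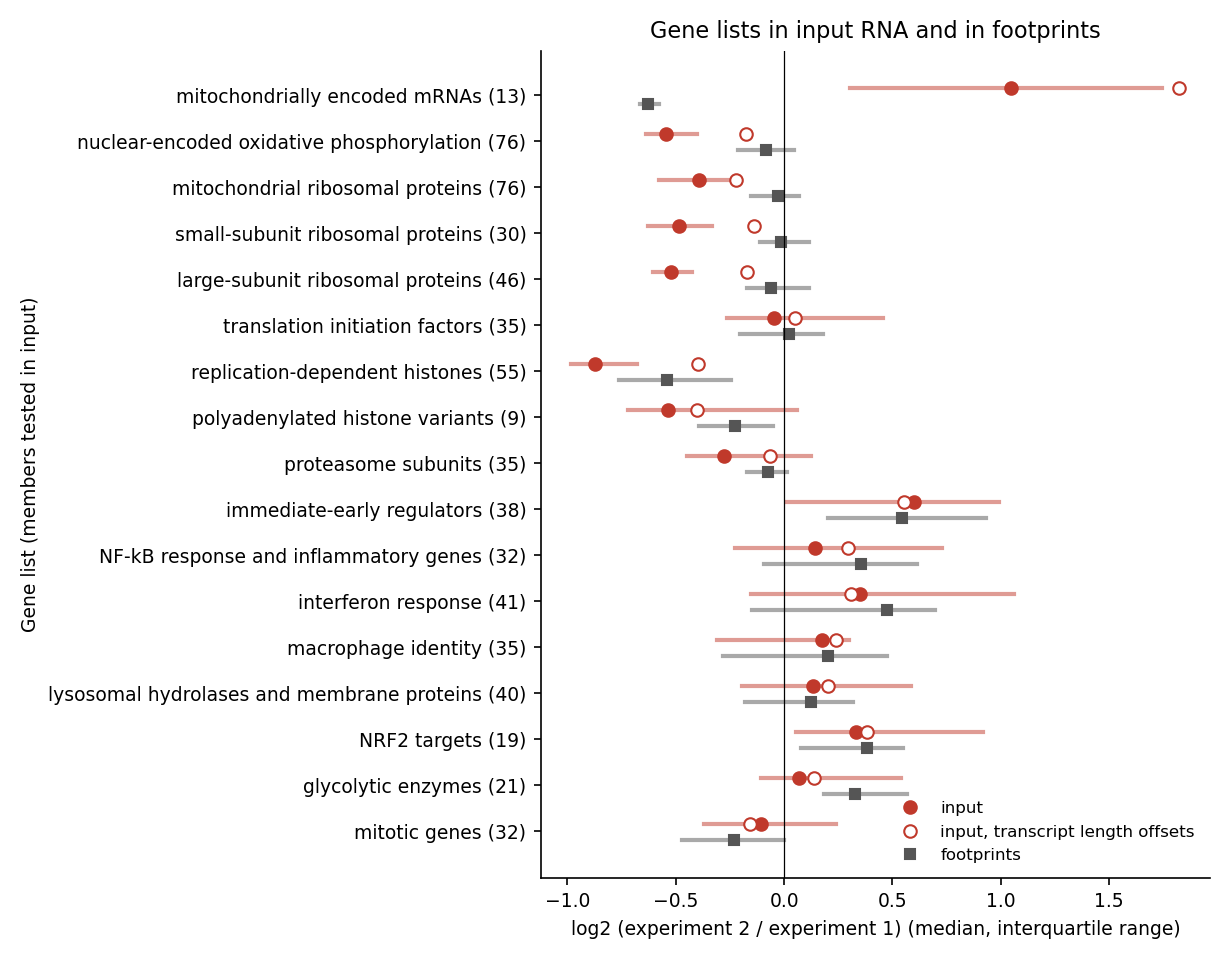
Median log2 difference of experiment 2 over experiment 1 for 17 gene lists, in input (red) and in footprints (grey), with bars for the interquartile range over members and the number of members tested in input in brackets. Open circles are the input medians with offsets for transcript length, which lie at -0.17 for large-subunit ribosomal proteins and at 1.82 for mitochondrially encoded mRNAs.

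The input difference rose with transcript length. In 5 equal groups of the 9962 genes with a protein-coding transcript, the median difference was -0.30 for transcripts of 204 to 1800 nt, then -0.11, -0.03 and 0.08, and 0.33 for those of 5096 to 27908 nt. Of the shortest group 35.7% of genes were lower and 7.98% higher, and of the longest 4.01% were lower and 40.8% higher. The trend was present at 20 min, with medians from -0.30 to 0.37, and at 40 min, from -0.28 to 0.30. Spearman's rho across genes was 0.39 in input and -0.09 in footprints, where the medians of the groups stayed between -0.06 and 0.04. GC content gave rho = 0.06 in input and 0.42 in footprints. Length offsets left 1619 genes higher and 1224 lower in input, of which 2291 in all were among the 3688 of the fit without them, in the same direction. The part of transcript length in the differences of single genes was not tested beyond these offsets.

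**Figure D5:**
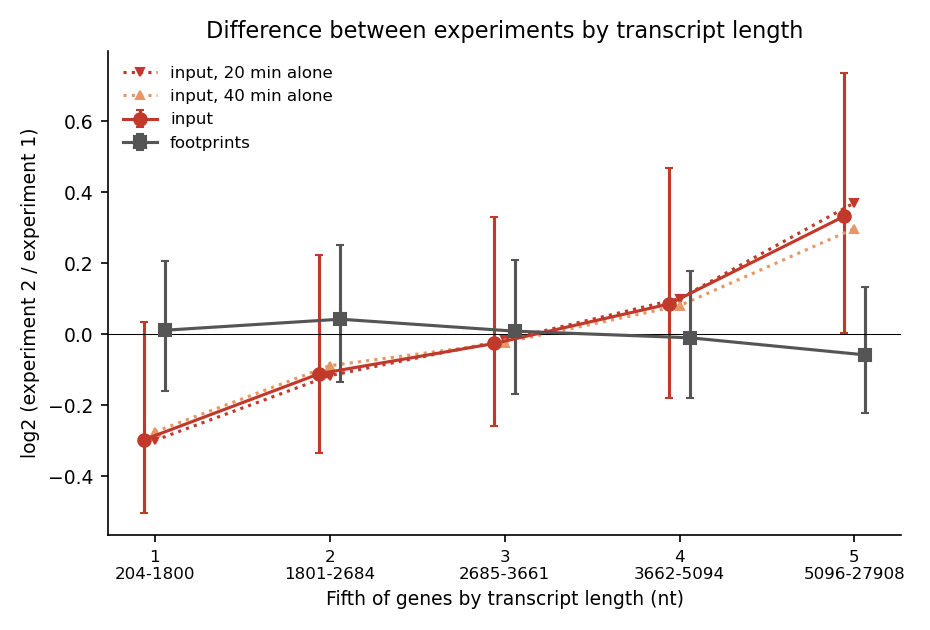
Median log2 difference of experiment 2 over experiment 1 (y axis) in 5 equal groups of genes by transcript length in nt (x axis), with bars for the interquartile range over genes. In input (red) the medians climb from -0.30 to 0.33, also at 20 min and at 40 min taken alone (dotted), while footprints (grey) stay near 0.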

How the data were processed

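The deposited tables hold whole-number read counts per gene, split by the number of T positions and of T-to-C conversions in a read, and the authors aligned reads with Bowtie 0.12.8 to mm10, per the submitters' processing notes. The sources used here do not give the counting program, annotation or strand setting. All columns of a library were summed per gene. Differences were tested with edgeR 4.0.16 (quasi-likelihood, TMM scaling, filterByExpr, Benjamini-Hochberg adjusted p under 0.05) in R 4.3.3 over all genes: in the 4 input libraries, in the 4 footprint libraries of the same lysates, and as an interaction over both. Input and footprints share a lysate, and a lysate block was an alternative. DESeq2 1.42.0, thinning, no low-count filter, GC and length offsets, and leaving out each library were the other alternatives. In simulated counts the input test recovered 92 of 100 genes changed 2-fold and 100 of 100 changed 4-fold, with 14 false calls among 10241 genes. Only those genes were changed, as many up as down, and each averaged at least 100 reads. No trend with transcript length and no deviating library was simulated, so these figures do not carry over to the real contrast. Genes were named by rule: the 13 mitochondrially encoded mRNAs and Pabpc1, the 12 highest and 12 lowest with at least 100 reads on average, leaving out clone and pseudogene names, and up to 4 members of each list. Some genes within these rules are not reported here. Csf1r, Cd68, Lyz2, Csf2, Cish, Socs3, Bcl2l1 and Csf2rb, and the genes given in brackets after small counts, were chosen after their values were seen. The members and lists were chosen with earlier results of these data known. Gene positions are from GENCODE on GRCm38, promoters from RefSeq.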

Additional observations from a re-analysis of the deposited data

Results flagged for a closer look

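Within the 6 input libraries of experiment 1, 15 of the 89 measures looked at (86 gene levels and 3 library totals or shares) had 1 library apart from the rest, its gap to the nearest library divided by the range of the 6 being above Dixon's critical value of 0.625. Chance flags about 1 group in 20. The 90 min library was the high one for 10 of them, with gap ratios of mt-Nd2 (0.660), mt-Nd4 (0.717), mt-Nd4l (0.637), mt-Nd5 (0.689), mt-Cytb (0.768), Pabpc1 (0.836), Zfhx2 (0.669), Anpep (0.688), Trim25 (0.640) and Msn (0.683). The other 5 were mt-Nd3 at 40 min (0.681), mt-Nd6 at 0 min (0.638), Hist1h4n at 20 min (0.667), Ndufb11 at 120 min (0.859) and Csf2 at 20 min (1), where a single read was the only one of the 6 libraries.

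For 48 of the genes tested by name, the difference of experiment 2 over experiment 1 was not the same in input and in footprints of the same lysates by edgeR's interaction test. Over all genes 1299 (12.3%) were higher and 674 (6.37%) lower in input. Most named genes were chosen by their input difference, so a large number is in part built in. The values that follow are the input difference minus the footprint difference on the log2 scale. Among mitochondrially encoded mRNAs it was larger in input for mt-Nd2 (2.60), mt-Nd4 (2.34), mt-Nd5 (2.60), mt-Nd6 (2.43) and mt-Cytb (2.17). Among the genes with the largest rises it was larger in input for Kdm6b (3.26), Zfhx2 (3.40), Furin (3.04), Ptpn5 (1.46), Rps16 (3.01), Anpep (2.77) and Irf2 (3.17), and smaller for Car2 (-0.82).

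In the translation machinery it was positive for Eif3b (1.90), Eif5b (1.55) and Eif3a (1.06) and negative for Rps3 (-0.71), Rpl9 (-1.13) and Rpl37a (-1.10). For signalling and innate immune genes it was positive for Per1 (1.21), Trim25 (2.32), Fcgr1 (0.57) and Bcl2l1 (1.88) and negative for Lyz2 (-0.54). For lysosomal and metabolic genes it was positive for Grn (0.66), Gusb (0.95), Atp6v0c (2.26), Hmox1 (0.68), Pgd (1.31), Hk1 (0.77) and Eno1 (1.35).

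For nuclear-encoded mitochondrial genes it was negative for Ndufb11 (-0.92), Cox8a (-0.74) and Mrps28 (-0.81) and positive for Mrpl12 (1.37). For chaperones, proteasome, cytoskeleton and RNA-binding proteins it was positive for Hyou1 (0.67), Hsp90ab1 (1.38), Psmd7 (1.23), Actg1 (1.16), Msn (2.00), Hnrnpd (1.78) and Cnot3 (2.03) and negative for Psmb3 (-0.72). Among chromatin and cell cycle genes it was negative for H2afz (-0.59), Aurkb (-0.47) and Ccnb1 (-0.49), and also for Tnni2 (-0.94) and RP23-140G16.1 (-1.05). Without the 40 min lysate of experiment 1, 3 genes in all passed this test.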

How the results depend on the processing

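The 4 compared input libraries gave 2069 genes higher and 1619 lower. Leaving out 1 input library gave 813 to 1849 genes higher and 328 to 1458 lower, with 1272 to 2822 of the original calls kept and none changing sign. All 9 input libraries with minutes of 4sU as a term gave 2553 genes lower, and 2712 without the 90 min library of experiment 1, a fit chosen after seeing the data. In footprints, leaving out 1 library gave 347 to 1940 genes higher and 211 to 1993 lower, against 794 and 598, and no filter on low counts gave 941 lower. For the difference between materials, leaving out 1 lysate gave 3 to 1498 genes larger in input and 0 to 599 lower, against 1299 and 674. Labelling time as a replicate block gave 2635 genes higher and 2325 lower in input, and 1730 higher and 1659 lower in footprints. Libraries of the same time deviated together with r = 0.20 in input and 0.24 in footprints, over 2 pairs only, so the block was not used as a pairing. Of 86 genes tested by name 78 were called, 60 of them in all 4 fits without 1 library, and the calls lost numbered 15 without the 40 min library of experiment 1, 10 without its 20 min library and 6 without the 20 min library of experiment 2. Depth limits low genes most in experiment 1, whose libraries held 6840807 and 6822082 reads.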
